A study of Mus musculus with 5 samples.

Results

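The interior of mouse chromosomes 12, 15, 16, 18 and 19, which carry ribosomal RNA gene arrays in C57BL/6 mice, was examined by SIRT7 ChIP-seq, in which DNA bound by the protein is pulled down with an antibody and sequenced. Reads were counted in bins of 1 Mb. A bin belonged to the set if it started at or after 15000000, was not among the last 12 bins of its chromosome and had a mean of at least 100 reads over the 5 libraries. These rules kept 343 of the 478 bins of the 5 chromosomes: 94 on chromosome 12, 78 on chromosome 15, 72 on chromosome 16, 64 on chromosome 18 and 35 on chromosome 19. No interior bin of the 5 chromosomes was lost to the read minimum, and the table tested held 2582 bins of the autosomes and X. The 1617 bins chosen by the same rules on the other 14 autosomes served for comparison. The choice of bins used their position and their mean read number, not the ratio of ChIP to input.

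SIRT7 is an NAD-dependent deacylase of the sirtuin family that is concentrated in the nucleolus, where it is known to associate with RNA polymerase I and to favour transcription of ribosomal RNA genes. It also removes acetyl groups from histones at promoters elsewhere in the genome. Nucleolus organisers are the chromosomal sites of the ribosomal RNA gene arrays, around which nucleoli form. In the mouse they lie close to the centromeres. The arrays themselves were not analysed here, so the bins report on the chromosome arms that follow them, and the set of chromosomes is that of C57BL/6 only.

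All libraries came from female TTF cells of a C57BL6/CAST hybrid; the labels do not spell out TTF. The groups were SIRT7 ChIP from wild-type (WT) cells with 2 libraries, SIRT7 ChIP from SIRT7-KO (knockout) cells with 1 library, WT input with 1 library and KO input with 1 library. Each group shares the hybrid background and the same sex, and the labels do not state whether the WT ChIP pair are separate cultures or whether the KO cells are 1 clone. P-values therefore rest on the spread between these libraries alone, and that spread may be technical. Sirt7 lies on chromosome 11, outside the bins described, and counts over 1 Mb do not check its deletion.

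The libraries held 174003957 and 167007601 reads (WT ChIP), 4968189 (KO ChIP), 224205689 (WT input) and 219168466 (KO input). A median bin of the set held 62314, 59497, 1853, 81416 and 84821 reads in that order. The median counting error of log2(ChIP/input) per bin was 0.034 in KO and 0.0077 in WT replicate 1, so a KO value is the less precise one. Reads could be assigned to a parental genome for 53.4% to 56.8% of the reads in the set, depending on the library.

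Signal is given as log2(ChIP/input): log2 of TMM-scaled CPM plus 1, with the value of the matching genotype's input subtracted from that of ChIP. A value of 0 means the same share of the library in ChIP and input after TMM scaling. Fold changes with standard errors (SE) come from the edgeR fit on counts. In that fit the WT pair supplies the only measure of spread, and the single libraries are assumed to vary like it. Both WT libraries are set against the same input.

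To show what the bins contain at the base level, the 250 bases upstream of the start of 4 genes are printed from RefSeq (GRCm38.p6), with every CG in capitals. Nup50 lies in the bin with the highest WT signal and Cdh18 is the only protein-coding gene in the bin with the lowest. Rrp7a lies in the highest bin among those with a gene of ribosomal RNA synthesis, and Nolc1 in a bin called for its parental genomes. The stretches are chr15:84923178-84923427 (plus strand, Nup50), chr15:23036213-23036462 (plus strand, Cdh18), chr15:83122802-83123051 (minus strand, Rrp7a) and chr19:46075597-46075846 (plus strand, Nolc1).
Nup50: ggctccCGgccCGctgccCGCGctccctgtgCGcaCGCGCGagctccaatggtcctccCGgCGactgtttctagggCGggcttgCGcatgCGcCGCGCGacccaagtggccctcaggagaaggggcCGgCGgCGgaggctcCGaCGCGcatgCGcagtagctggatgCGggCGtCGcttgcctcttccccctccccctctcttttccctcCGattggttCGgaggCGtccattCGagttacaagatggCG
Cdh18: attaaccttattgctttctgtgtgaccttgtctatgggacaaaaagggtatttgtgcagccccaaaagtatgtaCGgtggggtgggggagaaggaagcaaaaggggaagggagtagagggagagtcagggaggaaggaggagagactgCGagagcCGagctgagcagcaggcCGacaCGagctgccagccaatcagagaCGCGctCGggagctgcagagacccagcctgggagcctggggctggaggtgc
Rrp7a: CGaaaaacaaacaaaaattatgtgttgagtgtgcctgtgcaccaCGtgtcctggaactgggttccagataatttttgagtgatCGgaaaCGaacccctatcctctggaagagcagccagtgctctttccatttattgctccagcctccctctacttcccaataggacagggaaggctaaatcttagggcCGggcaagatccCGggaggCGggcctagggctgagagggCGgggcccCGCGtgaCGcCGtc
Nolc1: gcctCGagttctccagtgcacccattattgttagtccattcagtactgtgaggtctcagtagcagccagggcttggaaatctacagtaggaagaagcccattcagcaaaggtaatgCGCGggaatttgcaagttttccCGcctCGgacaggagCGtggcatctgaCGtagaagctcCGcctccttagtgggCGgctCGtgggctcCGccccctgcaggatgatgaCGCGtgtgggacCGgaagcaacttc
CG, which reads the same on both strands, occurred 31 times upstream of Nup50, 8 times upstream of Cdh18, 12 times upstream of Rrp7a and 14 times upstream of Nolc1. Of the 32851 upstream windows in the sequence table, 5.19% held at least as many as Nup50 and 43.0% at least as many as Cdh18. The share was 33.5% for Rrp7a and 29.4% for Nolc1. GC content was 69.6%, 58.0%, 54.8% and 56.4%. A bin of 1 Mb does not resolve a promoter, so these letters describe the bins' content and not a place of binding. Only 1307 of the 2207 protein-coding genes of the bins (59.2%) had a window in the table, too few to compare promoter sequence between bins.

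The first comparison asked where SIRT7 ChIP departed from input in WT cells. In the interior of the 5 chromosomes, more bins lay below input than above it: edgeR's quasi-likelihood test with Benjamini-Hochberg adjustment called 263 of 343 bins (76.7%), 98 above and 165 below input. Over all 2582 bins 75.1% were called, 37.6% above and 37.5% below, so the total was near the background while its split was not even. In the interior of the other autosomes 612 bins were above and 613 below. The median log2(ChIP/input) of the set was -0.031 and -0.034 in the WT libraries, against -0.0064 and -0.0014 for the other autosomes' interior. The changes were small: 20 of the called bins exceeded 0.25 in size on the log2 scale.

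Signal was highest on chromosome 15 between 84000001 and 85000000, a bin with 13 protein-coding genes, among them Nup50 (a nuclear pore protein), Samm50 (mitochondrial outer membrane assembly) and Pnpla3 (a lipid droplet protein). Its log2(ChIP/input) was 0.43 and 0.42 in the WT libraries and 0.38 in KO. All 3 ChIP libraries lay above their inputs, by 1.34-fold in WT (log2 0.43, SE 0.019; edgeR adjusted p 2.86e-101). The bin from 74000001 to 75000000 of the same chromosome, with members of the Ly6 family of GPI-anchored surface proteins and the synaptic gene Arc, was at 0.39 and 0.36 in WT and 0.33 in KO. The WT fold over input was 1.30 there (edgeR log2 0.38, SE 0.019, adjusted p 1.51e-80). On chromosome 12 the bin from 106000001 to 107000000, with Vrk1, a nuclear kinase, was at 0.38 and 0.36 in WT and 0.30 in KO. There the WT fold over input was 1.29 (edgeR log2 0.37, SE 0.019, adjusted p 8.22e-74). Gene-rich and gene-poor stretches were both among these high bins, with 21 genes in the Ly6 bin and 2 in the Vrk1 bin.

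Next highest were neighbouring bins near the start of the chromosome 12 interior. The bin from 19000001 to 20000000 was at 0.37 in both WT libraries and 0.23 in KO, and the next at 0.37 and 0.33 in WT and 0.28 in KO. They hold 7 and 8 genes that carry model names only. Reads of a known parental genome made up 19.01% and 26.4% of their reads, against a median of 57.7% on chromosome 12. Over the 20 bins from 15 to 35 Mb of this chromosome the WT medians were 0.14 and 0.15, with 14 bins above input. Without the 5 bins under 30% allelic reads the WT medians were 0.13 and 0.10, and 9 of the 15 left were above input. The part of the low allelic share in the high values was not tested.

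The lowest bins were gene-poor and mostly on chromosome 15. The bin of Cdh18, a neural cadherin, from 23000001 to 24000000, was at -0.34 and -0.33 in WT and -0.29 in KO. It was 0.794-fold of WT input (log2 -0.33, SE 0.018; edgeR adjusted p 2.84e-67). The bin of Trps1, a zinc finger repressor, from 50000001 to 51000000, was at -0.31 and -0.30 in WT and -0.34 in KO, or 0.809-fold in WT. The bin of Angpt1, a ligand of the endothelial receptor TIE2, from 42000001 to 43000000, was at -0.24 and -0.23 in WT and -0.29 in KO. Next to the Cdh18 bin, that from 22000001 to 23000000 was at -0.25 and -0.24 in WT and -0.16 in KO. Chromosome 16 from 86000001 to 87000000, with no protein-coding gene, was at -0.26 and -0.25 in WT and -0.33 in KO. Each of these bins was below input in all 3 ChIP libraries.

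**Figure D1:**
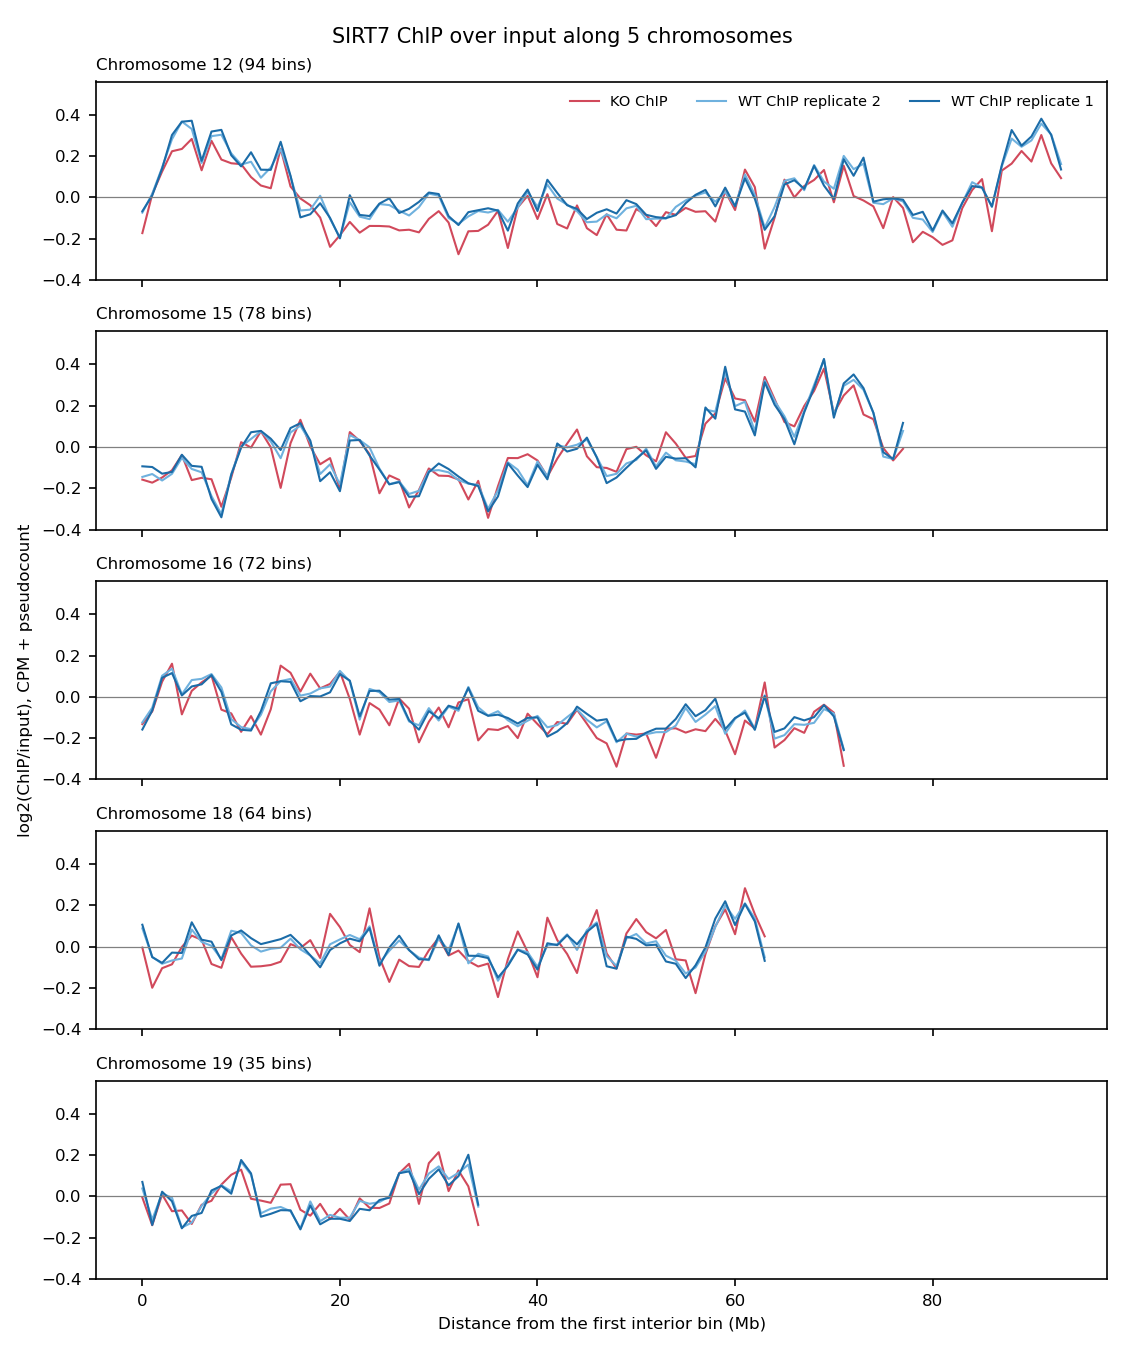
log2(ChIP/input) of each 1 Mb bin (y axis) by distance from the first interior bin in Mb (x axis) for the 5 chromosomes; lines are the 2 WT ChIP libraries and the KO ChIP library. The KO line follows the WT lines through the rise of chromosome 15, where the highest bin reached 0.43, 0.42 and 0.38, and all 3 lines stay mostly below 0 on chromosome 16.

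The 5 chromosomes did not behave alike. Chromosome 16 had the lowest interior median of the 19 autosomes in every ChIP library, at -0.089 in both WT libraries and -0.13 in KO, with 11 bins above and 49 below input in WT. Chromosome 15 had rank 3 and rank 2 from the lowest in the WT libraries (-0.053 and -0.056; KO -0.042), with 24 bins above and 41 below. Chromosome 12 (-0.011 and -0.021; KO -0.055; 32 above, 36 below), chromosome 18 (0.0083 and -0.012; KO -0.026; 20 above, 23 below) and chromosome 19 (-0.023 and -0.021; KO -0.021; 11 above, 16 below) lay among the other autosomes. Within a chromosome the SD over bins in WT replicate 1 ran from 0.079 on chromosome 18 to 0.17 on chromosome 15.

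**Figure D2:**
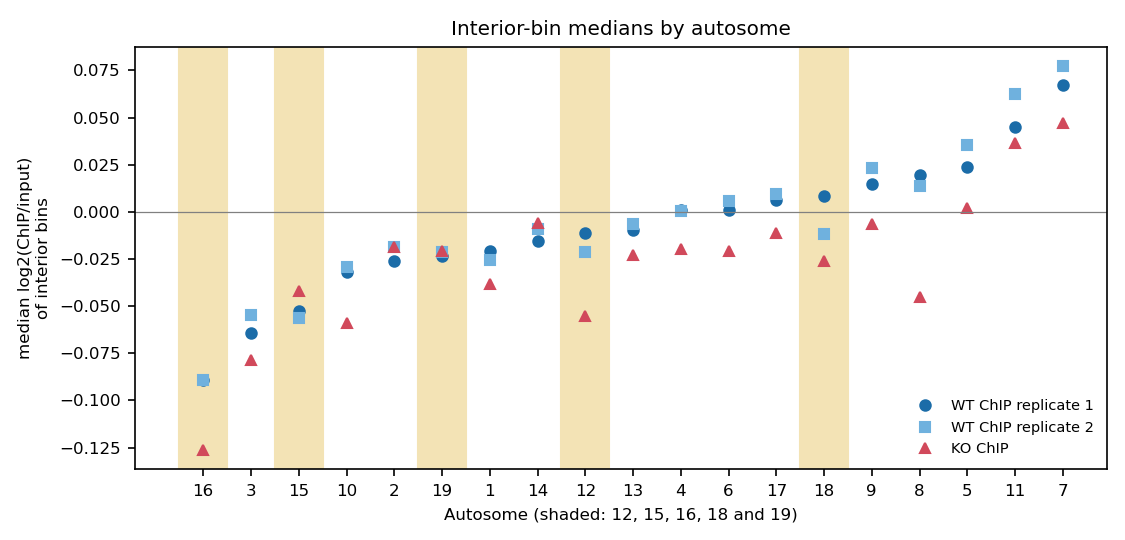
Median log2(ChIP/input) over interior bins (y axis) for each of the 19 autosomes (x axis, ordered by WT replicate 1); symbols are the 3 ChIP libraries and the 5 chromosomes 12, 15, 16, 18 and 19 are shaded. Chromosome 16 is lowest in all 3 libraries, and the other shaded chromosomes are scattered among the rest.

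Each chromosome's extremes show what lies behind these medians. On chromosome 16 even the highest bin, from 18000001 to 19000000, was at 0.12 and 0.14 in WT and 0.16 in KO; it holds 23 genes, among them Tbx1, a developmental transcription factor, and the histone chaperone gene Hira. Chromosome 18 ran from -0.15 and -0.17 in WT (KO -0.24) at Prr16, 51000001 to 52000000, to 0.22 and 0.20 (KO 0.18) at 74000001 to 75000000, where Mbd1 and Cxxc1 encode readers of methylated and unmethylated CpG. Chromosome 19 ran from -0.16 and -0.16 (KO -0.065) at Prkg1, the cGMP-dependent kinase, 31000001 to 32000000, to 0.20 and 0.15 (KO 0.049) at Sorcs3, a sorting receptor, 48000001 to 49000000. The lowest bin of chromosome 12, 35000001 to 36000000, holds Ahr, the dioxin receptor, and was at -0.20 in both WT libraries and -0.18 in KO. KO lay on the same side of input as WT in every one of these bins.

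The profile along the interior differed between the chromosomes. In windows of 20 Mb the WT medians of the set were 0.0075 and 0.0059 from 15 to 35 Mb, -0.058 and -0.053 from 35 to 55 Mb, and -0.058 and -0.062 from 55 to 75 Mb. They were 0.027 and 0.045 from 75 to 95 Mb, where KO was also at 0.027, and 0.094 and 0.11 beyond 95 Mb, where only chromosome 12 had bins. The same windows of the other autosomes stayed between -0.029 and -0.0064 in the WT libraries. Those medians pool 246 to 280 bins per window, against 14 to 100 bins of the set. Windows of single other autosomes were not computed, so the swings are not shown to be particular to the set. Among the 5 chromosomes the first window was above 0 on chromosome 12 (0.14 and 0.15) and below 0 on chromosome 15 (-0.092 and -0.095), so the window nearest the centromere had no common sign. Chromosome 15 went from -0.16 in both WT libraries at 35 to 55 Mb, with a median of 2.5 genes per bin, to 0.17 and 0.19 at 75 to 95 Mb, with a median of 16 genes. Chromosome 16 fell to -0.12 and -0.14 at 55 to 75 Mb, where 19 of 20 bins were below input and the median bin held 1 gene.

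At the edges of the interior the values did not step in a common direction. The bin before 15 Mb was at 0.0040 and -0.035 in WT on chromosome 12 and the first interior bin at -0.068 and -0.075; on chromosome 18 the same bins were at 0.088 and 0.066, and 0.11 and 0.088. On chromosome 16 the last interior bin (-0.26 and -0.25) was followed by one at -0.037 and -0.020.

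Gene number moved with the signal. Across the 343 bins the Pearson correlation of protein-coding gene number with log2(ChIP/input) was 0.40 in WT and 0.47 in KO. In the other autosomes' interior it was 0.38 and 0.45. These values are descriptions, since neighbouring bins are not independent and all share the libraries. The bins of the set were poorer in genes, with a median of 4 against 6 on the other autosomes, and 30.3% of them held 0 or 1 gene against 23.4% there. In bins with 15 to 67 genes the set was at 0.085 and 0.10 in WT and the other autosomes at 0.082 and 0.10. In bins with 0 or 1 gene the set was at -0.080 and -0.099, and the other autosomes at -0.067 and -0.086. The gap between the set and the other autosomes in the WT mean was -0.028, and -0.012 when averaged over 5 classes of gene number. Set against bins of the same class, chromosome 16 was still lower, by medians of -0.052 in both WT libraries and -0.063 in KO, and 43 of its 72 bins were below in all 3. Over the whole set 146 of the 343 bins were below in all 3.

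**Figure D3:**
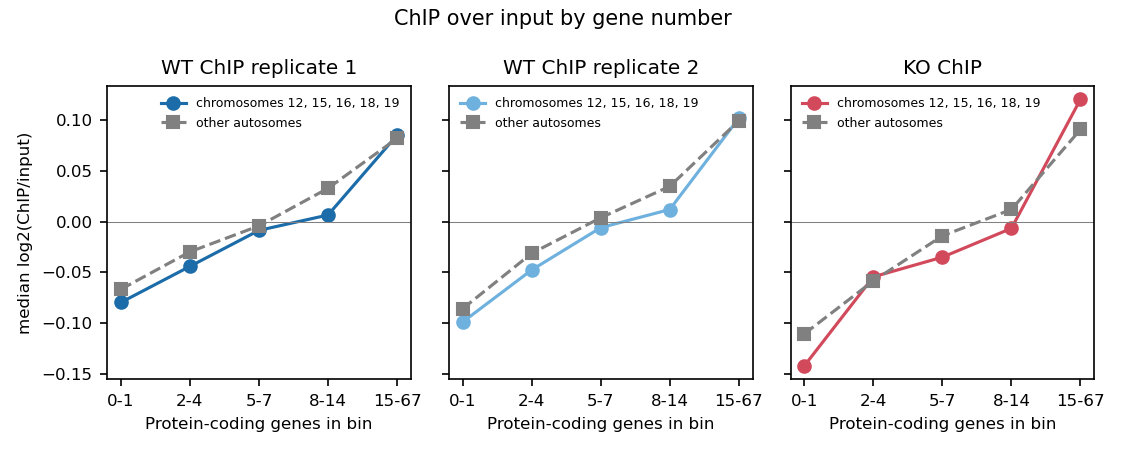
Median log2(ChIP/input) (y axis) by number of protein-coding genes in the bin (x axis, 5 classes) in each ChIP library, for the 343 bins (solid) and the 1617 interior bins of the other autosomes (dashed). Both lines rise with gene number in every library, and for bins with 15 to 67 genes they meet in the WT libraries.

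Genes of nucleolar work were looked at as a list. RNA polymerase I subunits and initiation factors (Twistnb, Taf1b), the polymerase I co-factor treacle (Tcof1) and processing or assembly factors of ribosomal RNA (Nol10, Utp23, Bop1, Rrp7a, Noc3l, Rrp12, Nolc1) lie in 10 of the bins. In WT 7 of these bins were called above and 2 below input, against 37.6% and 37.5% of all bins. In KO 5 were called above and 2 below, against 21.6% and 28.7% of all bins. They held 4 to 52 protein-coding genes, against a median of 4 over the set. They were not compared with bins of the same gene number. The 10 bins had WT medians of 0.092 and 0.098 and a KO median of 0.087, while the 47 interior bins of the same list on other autosomes had 0.073, 0.083 and 0.061. The highest was the Rrp7a bin of chromosome 15, 83000001 to 84000000, with 17 genes, at 0.29 and 0.30 in WT and 0.27 in KO. The lowest was the Utp23 bin of chromosome 15, 51000001 to 52000000, with 4 genes, at -0.24 and -0.21 in WT and -0.19 in KO. In 0 of the 10 bins did WT differ from KO at an edgeR adjusted p under 0.05, where 2.83% of all bins did.

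Bins with genes of cytosolic ribosomal proteins were 10, with 5 above and 4 below input in WT; for this and the next lists the shares over all bins were 37.6% above and 37.5% below. Their medians were 0.036 and 0.060 in WT and 0.042 in KO, against 0.082, 0.11 and 0.12 in 47 bins elsewhere. The highest was the bin of Rpl8 on chromosome 15, which it shares with Bop1, at 0.17 and 0.22 in WT and 0.23 in KO, and the lowest that of Rpl30, at -0.12 and -0.084 in WT and -0.054 in KO. Gene clusters differed. Both bins of the Ly6 family and both of the serpin A protease inhibitors were above input in WT, 3 of 4 olfactory receptor bins were below, and of the 3 Cyp2c cytochrome P450 bins 1 was above. The protocadherin bin of chromosome 18, with 57 genes for neuronal adhesion proteins, was at 0.026 and 0.036 in WT and -0.027 in KO and was not called. Of the 4 bins with fibroblast genes, those of Fbn2 (fibrillin) and Pdgfrb (a growth factor receptor) were above and those of Lox (a collagen cross-linking enzyme) and Acta2 (smooth muscle actin) below input in WT. Medians of the olfactory receptor bins were -0.057 in both WT libraries, against -0.0024 and -0.0043 in 66 bins of the other autosomes. Those of the fibroblast bins were -0.019 and -0.014, against 0.061 and 0.076 in 13 bins there. The interior of the 5 chromosomes held none of the type II keratins on the list.

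The second comparison asked how ChIP and input related in the SIRT7-KO cells. Bins that were high or low in WT were mostly on the same side of input in KO. edgeR called 191 of the 343 bins in KO ChIP over input (55.7%), 65 above and 126 below, where 50.2% of all bins were called, 21.6% above and 28.7% below. Of the bins called in both genotypes 58 were above in both, 107 below in both and 0 opposite. Over all 2582 bins these counts were 528, 631 and 7. Over the 1617 interior bins of the other autosomes they were 320, 407 and 6. The Pearson correlation between WT and KO was 0.87 across the 343 bins and 0.87 in the other autosomes' interior. It is a description over bins that share positions but no library. By chromosome it ran from 0.70 on chromosome 18 to 0.94 on chromosome 15. The highest KO bin was that of Nup50 (log2 0.38, SE 0.034; edgeR adjusted p 1.02e-25), then chromosome 15, 78000001 to 79000000, with Lgals1 and Il2rb, at 0.34 in KO and 0.31 and 0.32 in WT. The lowest was the Trps1 bin (log2 -0.34, SE 0.036; edgeR adjusted p 1.66e-19), then that of Epha3, an ephrin receptor, on chromosome 16, 63000001 to 64000000, at -0.34 in KO and -0.21 and -0.22 in WT. KO counts of called bins depended on the fit, with 78 by limma-voom and 68 without the dispersion floor.

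The gap between the set and the other autosomes' interior was -0.024 and -0.033 in the WT libraries and -0.035 in KO. No test of WT against KO was made for this gap: with 2 against 1 libraries the smallest p of an exact two-sided permutation test is 0.333. The order of the genotypes depended on the setting. Without chromosome 16 the gap was -0.011 in the WT mean and -0.018 in KO, without chromosome 12 it was -0.039 and -0.035, and averaged over the classes of gene number -0.012 and -0.0075.

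A direct test of WT minus KO found few bins. edgeR called 9 of the 343 bins (2.62%), 7 higher and 2 lower in WT, while 2.83% of all bins were called, 2.44% higher and 0.387% lower. The share was near the background. The largest difference was on chromosome 12 from 88000001 to 89000000, with Adck1, a mitochondrial kinase-like gene, and a Pramel gene: 0.19 and 0.16 in WT against -0.016 in KO (log2 difference 0.19, SE 0.042; edgeR adjusted p 0.0017). Next came the bin of Hspa13, a heat shock protein gene, on chromosome 16 from 75000001 to 76000000, at -0.10 and -0.11 in WT and -0.28 in KO, and a bin without protein-coding genes on chromosome 15 from 29000001 to 30000000, at -0.015 and -0.054 in WT and -0.20 in KO. These bins were picked by that test, so the distance between WT and KO in them is no further evidence. Their WT values were on different sides of input.

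The 2 bins lower in WT hold well-known genes. Chromosome 15 from 54000001 to 55000000 holds Tnfrsf11b (osteoprotegerin), Enpp2 (autotaxin) and Ccn3, a matricellular protein, and was at -0.19 in both WT libraries and -0.035 in KO (log2 difference -0.15, SE 0.039; edgeR adjusted p 0.0090). Chromosome 18 from 34000001 to 35000000 holds Apc, the brake on Wnt signalling, and was at -0.017 and 0.011 in WT and 0.16 in KO (log2 difference -0.16; edgeR adjusted p 0.0148). The other calls were chromosome 12 from 96000001 to 97000000 (0.16) and 103000001 to 104000000 (0.14, serpin A genes), chromosome 16 from 49000001 to 50000000 (0.15, Cd47) and chromosome 18 from 40000001 to 41000000 (0.16, Yipf5 and Kctd16). DESeq2 called 1 of the 343 bins, that of Tnfrsf11b (adjusted p 0.0292). limma-voom and the fit without the dispersion floor called 0 (13 and 29 at an unadjusted p under 0.05), while other scalings changed the split, to 3 higher and 7 lower with TMM from autosomes, 5 and 5 with DESeq2 size factors, and 2 and 2 with library totals.

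The inputs differed between the genotypes over whole chromosomes. WT input was lower than KO input in all 94 bins of chromosome 12 and all 72 of chromosome 16, and higher in all 78 of chromosome 15, all 64 of chromosome 18 and all 35 of chromosome 19. edgeR called 343 of 343 bins, 177 higher and 166 lower, against 76.8% of all bins (35.2% higher, 41.6% lower), and the alternative fits called between 330 and 343. The ratio of WT to KO input was 0.861 for chromosome 12 and 0.889 for chromosome 16. It was 1.13 for chromosome 15, 1.11 for chromosome 18 and 1.16 for chromosome 19. Among the other autosomes it ranged from 0.874 on chromosome 9 to 1.16 on chromosome 14, with chromosome 1 at 1.00. In their interior 68.3% of bins were called. Bins of a chromosome shifted together and each genotype had 1 input library, so the calls are not independent observations. Among the highest ratios were those of the bin of Zfat, a zinc finger gene, on chromosome 15 from 68000001 to 69000000 (147847 reads in WT and 119330 in KO input; edgeR log2 0.26, SE 0.021, adjusted p 4.05e-31) and of the bin of the kinase gene Jak2 on chromosome 19 from 29000001 to 30000000 (edgeR log2 0.26). The lowest were on chromosome 12, at 0.809 in the bins from 103000001 to 104000000 (serpin A genes) and from 88000001 to 89000000 (Adck1), and 0.812 from 22000001 to 23000000, where the 6 genes carry model names. Relative to the interior autosomal median, chromosome 15 was at 1.85 in the WT and 1.53 in the KO input and chromosome 19 at 1.41 and 1.12. Chromosome 12 was at 0.936 and 1.01, chromosome 16 at 1.04 and 1.10, and chromosome 18 at 1.07 and 0.886. Chromosome 15 was the highest autosome in WT input and the second highest in KO input.

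WT minus KO of log2(ChIP/input) contains both inputs by its construction, so its values are only set beside those of the inputs. Chromosome 12, with the lowest WT relative to KO input of the autosomes, had the highest median WT minus KO, at 0.058, and chromosome 16 had 0.031. Chromosome 15 had the lowest (-0.0071), chromosome 19 the next lowest (0.0013) and chromosome 18 was at 0.015. The medians were 0.024 over the set and 0.020 over the other autosomes' interior, a gap of 0.0035 that became -0.013 without chromosome 12. The median excess of chromosome 12 over the other autosomes' bins of the same class of gene number was 0.035.

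**Figure D4:**
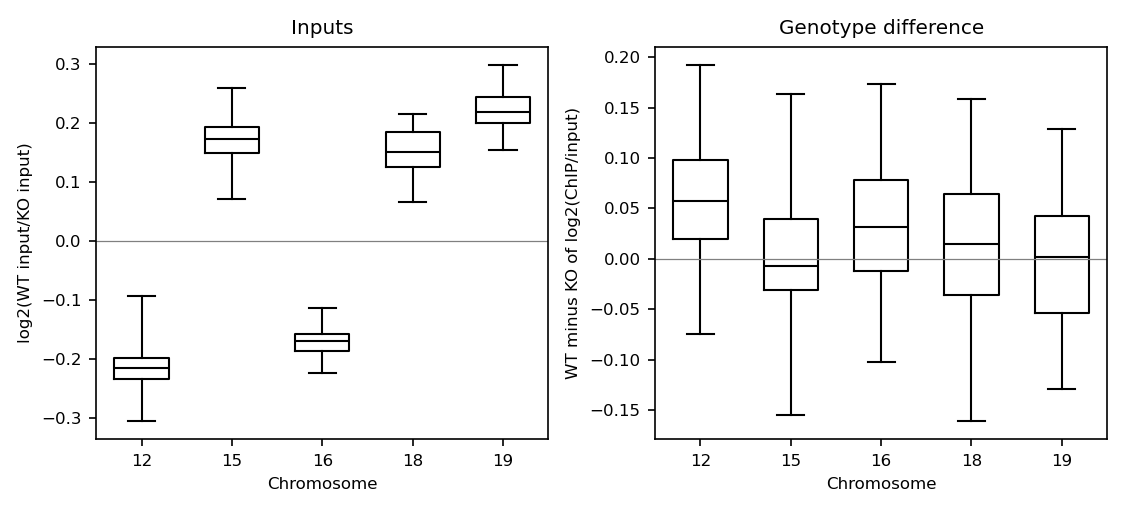
For each of the 5 chromosomes (x axis), log2 of WT input over KO input (left, y axis) and WT minus KO of log2(ChIP/input) (right, y axis) over interior bins; boxes span the quartiles, the line is the median and whiskers reach the lowest and highest bin. All bins of chromosomes 12 and 16 are below 0 for the inputs and all bins of the other 3 above, while on the right the chromosomes overlap.

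Parental genomes were compared within each library as the share of genome1 among reads assigned to genome1 or genome2; which of them is C57BL6 is not stated. Intervals cover counting error only. In WT input genome1 made up 58.7% on chromosome 12, 56.8% on chromosome 15, 59.4% on chromosome 16, 48.3% on chromosome 18 and 71.2% on chromosome 19. In KO input it was 42.8%, 39.2%, 49.1%, 56.7% and 49.7%. The share was higher in WT than in KO in every bin of chromosomes 12, 15, 16 and 19, and lower in every bin of chromosome 18. Over the set the genome1 share of WT input was 57.9% and that of KO input 45.9%, and over the other autosomes' interior 49.0% and 52.4%.

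SIRT7 ChIP left the WT shares nearly as they were in input. The shift from input was 0.086 and 0.084 percentage points on chromosome 12 (95% half-widths 0.077 and 0.079), 0.057 and 0.015 on chromosome 15, -0.040 and -0.047 on chromosome 16, -0.035 and 0.0023 on chromosome 18, and -0.14 and -0.15 on chromosome 19 (half-widths 0.090 and 0.092). Of the 5 chromosomes 12 and 19 had shifts beyond counting error in both libraries, in opposite directions. The other autosomes' interior also shifted beyond counting error, by 0.084 and 0.092 points (half-widths 0.018 and 0.018), close to the values of chromosome 12. Over all bins of the set the shift was -0.015 and -0.020 points, with half-widths of 0.034 and 0.035. Log2(ChIP/input) was also computed for each genome, here scaled to total allelic reads without TMM, so its zero point differs from that above. In WT it gave member medians of -0.041 and -0.043 for genome1 and -0.038 and -0.039 for genome2. The median difference within a bin, genome1 minus genome2, was 0.00087 and 0.0029 in WT and 0.059 in KO. On the other autosomes it was -0.00083 and -0.0018 in WT and -0.018 in KO.

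In KO the share moved further. The shift was 0.83 points on chromosome 12 (half-width 0.33), 1.73 on chromosome 15 (0.29), 1.02 on chromosome 16 (0.37), -0.38 on chromosome 18 (0.41) and 1.64 on chromosome 19 (0.49). On each chromosome it pointed from the KO input share toward the WT input share, though on chromosome 18 it was within counting error. Over the set the KO shift was 1.02 points (half-width 0.16), where WT input lay 12.1 points above KO input. Over the other autosomes' interior it was -0.36 points (half-width 0.081), where WT minus KO input was -3.36 points. KO input mixed with 7.11% of WT reads, the proportion fitted on the other 14 autosomes, gives shifts of 1.14, 1.25, 0.73, -0.60 and 1.52 points. Whether the KO ChIP library holds WT reads was not tested. With that proportion subtracted, the median WT minus KO was 0.045 on chromosome 12 and 0.0068 on chromosome 15, and the gap between the set and the other autosomes was -0.037 in KO.

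Single bins were then tested for a change of the genome1 to genome2 ratio from input to ChIP. In WT edgeR called 9 of the 343 bins (2.62%), 6 toward genome1 and 3 toward genome2, where 3.57% of all bins were called, 2.95% and 0.621% by direction. In the other autosomes' interior 19 of 1617 bins were called (1.18%), 12 toward genome1 and 7 toward genome2. The largest was chromosome 12 from 41000001 to 42000000, with Immp2l, a mitochondrial inner membrane peptidase, and Lrrn3: its genome1 share was 60.6% in WT input and 65.4% and 64.9% in WT ChIP (log2 0.28, SE 0.026; edgeR adjusted p 0.000244). The KO shares there were 46.2% in ChIP and 44.5% in input. In the bins on either side WT input was at 63.7% and 64.1%, and KO input at 46.9% and 47.0%. WT ChIP was at 65.0% and 64.5% in the bin before and at 64.8% and 64.1% in the bin after. Both WT ChIP libraries are set against the same input, and whether input or ChIP deviates in this bin was not tested. The bins of Nova1, a neuronal splicing factor, at 46000001 to 47000000 (55.6% and 55.4% against 52.5%) and the next one (61.4% and 60.3% against 58.1%) followed. Toward genome2 the bin of Epha3 was furthest, at 61.2% and 61.6% in WT ChIP against 63.5% in input (log2 -0.13, SE 0.024; edgeR adjusted p 0.00889), then a bin without genes at 66000001 to 67000000 and, on chromosome 15, that of Myc, the growth regulator, at 61000001 to 62000000 (56.7% and 57.0% against 58.3%). Beside the Epha3 bin WT input was at 61.7% and 62.3%, and beside the Myc bin at 56.8% and 57.2%.

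In KO 27 bins were called (7.87%), 23 toward genome1 and 4 toward genome2, where 4.50% of all bins were called, 2.33% and 2.17% by direction. In the other autosomes' interior 56 bins were called (3.46%), 17 toward genome1 and 39 toward genome2. Chromosome 15 held 11 of the 27 and 78 of the 343 bins. Its KO input was at 1.53 of the interior autosomal median, so its counting errors were smaller. The median log2 change in KO was 0.11 on chromosome 15 and 0.12 on chromosome 19, which had 3 calls in 35 bins. The part of read depth in these counts was not tested. The bins furthest toward genome2 in KO were that of Cd96, a lymphocyte receptor, on chromosome 16 from 46000001 to 47000000, and a pair on chromosome 18. The genome1 share of the Cd96 bin was 35.1% in KO ChIP against 41.5% in KO input (log2 -0.39, SE 0.084; edgeR adjusted p 0.0325). That of Zfp608, 54000001 to 55000000, was at 49.6% against 55.8%, and that of the zinc transporter gene Slc39a6, 24000001 to 25000000, at 56.6% against 62.2%.

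The change in WT minus that in KO was called in 11 bins (3.21%), 0 above and 11 below 0, where 2.17% of all bins were called, 1.13% above and 1.05% below. In the other autosomes' interior it was called in 32 bins (1.98%), 23 above and 9 below. In the 11 bins the log2 change from input was 0.20 to 0.47 in KO, with 10 of them called in KO, and -0.081 to 0.055 in WT. Chromosome 15 held 8 of the 11. Among them were the bin of Ostn, a secreted muscle factor, on chromosome 16 (58.6% in KO ChIP, 51.1% in KO input; 61.7% and 61.3% in WT ChIP, 61.9% in WT input), that of Camk4, a calcium-dependent kinase, on chromosome 18 (64.5%, 56.8%; 48.8%, 48.5%, 48.2%) and that of Nolc1 on chromosome 19 (57.8%, 50.9%; 73.0%, 72.9%, 73.2%). In these 3 bins the WT ChIP shares lay within 1 point of WT input, while KO ChIP lay above KO input. All 11 bins were picked by the test of WT minus KO, so their shifts in KO and WT are no further evidence. limma-voom and the fit without the dispersion floor called 0 of the 343 bins for KO, with 18 and 17 at an unadjusted p under 0.05, and 0 for WT minus KO, with 19 and 34.

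The genome1 share also varied along the chromosomes in the inputs themselves. In 58 of the 343 bins (16.9%) it lay more than 5 points below the chromosome's median in WT input, against 20.7% of the other autosomes' interior bins. Chromosome 12 had 28 of them, in runs. The first run covered 14 bins from 15000001 to 29000000, where the WT input share was between 9.20% and 51.7% and the KO input share between 6.64% and 40.9%. A second, of 5 bins from 50000001 to 55000000, reached down to 14.1% in WT input, 10.0% in KO input, 12.9% and 13.2% in WT ChIP and 11.4% in KO ChIP. The drop on chromosome 18 from 59000001 to 61000000 reached 21.0% in WT input and 25.4% in KO input, though genome1 is the minor genome of that chromosome only in WT. Of the 28 bins of chromosome 12, 27 were also low in KO input, as were all 3 of chromosome 15, all 12 of chromosome 16, all 8 of chromosome 18 and 5 of the 7 of chromosome 19. Most of these bins were thus low in the inputs of both genotypes. The ChIP libraries were not held against the same rule.

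**Figure D5:**
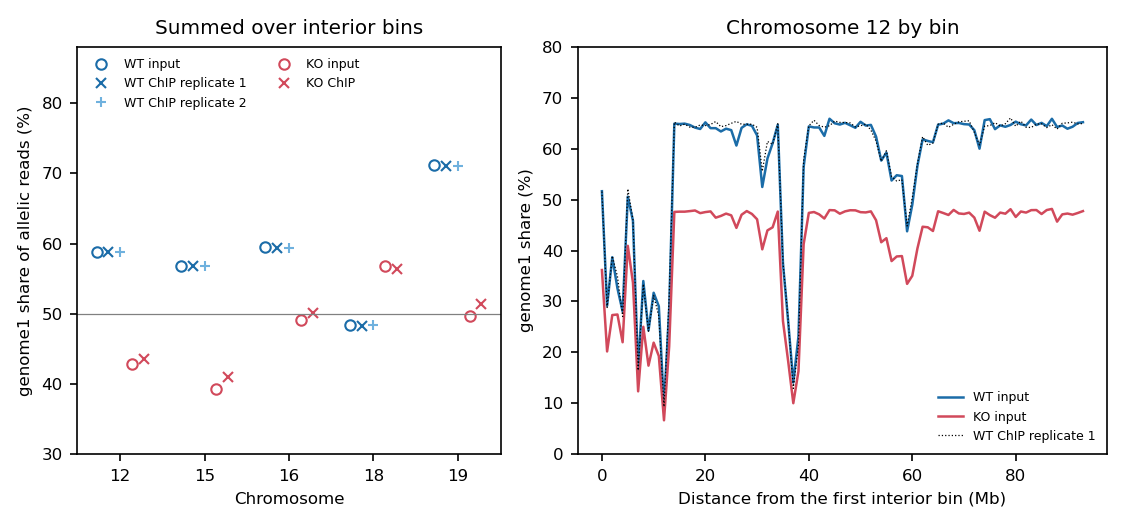
Genome1 share of allelic reads in percent (y axes): summed over interior bins of each of the 5 chromosomes in the 5 libraries (left), and by bin along chromosome 12 by distance from its first interior bin in Mb (right) for both inputs and WT ChIP replicate 1. WT ChIP marks sit on the WT input, KO ChIP is set off toward WT, and the low runs of chromosome 12 recur in both inputs.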

How the data were processed

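The authors deposited read counts in bins of 1 Mb, with 4 columns per library (all reads, genome1, genome2, unassigned). The submitters' processing notes name mm10, Bowtie2 2.2.9, SAMtools 0.1.19, Trimmomatic 0.36 and FastQC 0.11.3. The method that gave reads to genome1 or genome2 is not stated in the labels. The authors' table of ratios was not used here, and 0 per-sample count columns were left unmapped.

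Counts of 2582 bins with a mean of at least 100 reads were fitted by quasi-likelihood in edgeR 4.0.16 under R 4.3.3 (TMM, 4 group means, all 5 libraries). The dispersion was raised to a floor of 1e-04, because without it the median deviance that edgeR returned was 92.4 where its formula gives 0.466 (0.456 by both with the floor). The fit has 1 residual degree of freedom. Genome1 and genome2 counts of 2575 bins were fitted with library as a block and total allelic reads as offset. Benjamini-Hochberg adjusted p-values over all bins tested were held against 0.05. The scripts were tested on simulated counts. Also run were limma-voom (limma 3.58.1), DESeq2 1.42.0, other scalings, floors and count minimums, summed counts, and leaving out a library, a chromosome or bins of extreme input. Shares have exact 95% binomial intervals, and a shift's half-width combines the errors of both shares; duplicate reads count as separate molecules in them. Genes were placed by midpoint with RefSeq GRCm38.p6, the same mouse build as mm10.

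Bins named were the 5 highest and 5 lowest called in WT over input, the 3 highest and 3 lowest called in the other fits, the extremes of each chromosome, and bins of the gene lists; beyond 5 bins a list is given by its counts, median, highest and lowest. One bin of the inputs that the rule names is not reported here. All called bins of WT minus KO were named because of their small number, after their values were seen. Members, lists and the floor were chosen with earlier results of these data known.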

Additional observations from a re-analysis of the deposited data

Results flagged for a closer look

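In 9 bins the ChIP over input differed between WT and KO in edgeR's test of the difference itself, on the log2 scale and as WT minus KO. That was 2.62% of the set, near the 2.83% called over all bins. On chromosome 12 the differences were 0.19 (88000001 to 89000000, Adck1), 0.16 (96000001 to 97000000) and 0.14 (103000001 to 104000000, serpin A genes). On chromosome 15 they were 0.16 (29000001 to 30000000) and -0.15 (54000001 to 55000000, Tnfrsf11b), on chromosome 16 0.15 (49000001 to 50000000, Cd47) and 0.17 (75000001 to 76000000, Hspa13), and on chromosome 18 -0.16 (34000001 to 35000000, Apc) and 0.16 (40000001 to 41000000, Kctd16). DESeq2 kept 1 of the 9 and limma-voom 0.

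In 11 bins the change of the genome1 to genome2 ratio from input to ChIP differed between WT and KO by the same kind of test. That was 3.21% of the set, against 2.17% of all bins and 1.98% of the other autosomes' interior. On chromosome 15 the log2 differences were -0.32 (18000001 to 19000000, Cdh10), -0.28 (26000001 to 27000000, Fbxl7), -0.24 (36000001 to 37000000, Pabpc1), -0.30 (38000001 to 39000000, Klf10), -0.29 (54000001 to 55000000, Tnfrsf11b), -0.26 (58000001 to 59000000, Fbxo32), -0.29 (80000001 to 81000000, Pdgfb) and -0.39 (87000001 to 88000000, Tafa5). On chromosome 16 it was -0.46 (27000001 to 28000000, Ostn), on chromosome 18 -0.44 (33000001 to 34000000, Camk4) and on chromosome 19 -0.42 (46000001 to 47000000, Nolc1). The Tnfrsf11b bin was called for both the total and the allelic difference. limma-voom called 0 of the 11.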

How the results depend on the processing

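No paired analysis was possible because only the WT ChIP libraries carry replicate numbers, so no groups share them. Calls in WT over input and in the inputs stayed within 1.5 times under each alternative fit. KO over input fell from 191 bins to 78 with limma-voom and 68 without the dispersion floor. WT minus KO, with 9 bins, had 4 with library totals, 1 with DESeq2, 0 with limma-voom, 0 without the floor and 50 with a floor 2 times as high. For the parental genomes, WT had 16 bins without the floor in place of 9; KO had 0 without the floor, 0 with limma-voom and 48 with the higher floor in place of 27; WT minus KO had 0, 0 and 42 in the same order, and 25 with an allelic count minimum of 1000, in place of 11. The gap of the set to the other autosomes' interior, -0.028 in WT, was -0.016 with summed counts and -0.012 averaged over classes of gene number. It was -0.021 without bins of extreme input, which were 15 in the set, all on chromosome 15, and 8 on the other autosomes. Without chromosomes 12, 16 and 18 in turn it was -0.039, -0.011 and -0.038. In KO, -0.035 became -0.027 with summed counts, -0.018 without chromosome 16 and -0.0075 over gene classes. The WT minus KO gap of 0.0035 became 0.011 with summed counts, 0.0070 without extreme input, 0.013 without chromosome 15 and 0.0071 without chromosome 19, and it changed sign to -0.013 without chromosome 12 and -0.0027 over gene classes. Leaving out each WT ChIP library gave -0.033 to -0.024 in WT and 0.0015 to 0.0060 for WT minus KO, values with no test. The median of chromosome 12 from 15 to 35 Mb, 0.15 in the WT mean, was 0.11 without the bins under 30% allelic reads, an alternative chosen after seeing the data. For these changes the cause was not tested. The KO depth, with a median of 1853 reads per bin, limits every comparison with KO.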
